A study of Mus musculus with 6 samples.

Results

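The cathepsins described here are 9 genes, Ctsa, Ctsb, Ctsc, Ctsd, Ctse, Ctsh, Ctsl, Ctss and Ctsz, read by 14 probes of the 46632 on the array, which names 17711 genes. They were taken by name, with every probe annotated to them, in fetal liver cells carrying a DNA-binding mutant of SCL and in wild-type cells. The choice was made with the difference between these genotypes known, above all that of Ctse, so the cathepsins' own differences are given as a description with no test.

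SCL, encoded by Tal1, is a transcription factor of blood cell formation. The study compared 2 genotypes on the C57Bl/6 strain, SclRER/RER, whose SCL is a mutant form that does not bind DNA, and wild type (WT). Fetal liver cells were taken at embryonic day E12.5 and grown for 3 days in both groups, and the cells lacking the late erythroid surface antigen Ter119 were purified. Total RNA of 3 samples per genotype was hybridised to 1-colour Illumina bead arrays. All 6 arrays come from cultured and sorted cells, so neither group represents the uncultured liver. Whether the 3 samples per genotype were drawn from different embryos or cultures is not in the labels, and the spread that the tests measure may be technical.

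Cathepsins are proteases that mostly work in the acid interior of lysosomes, where they degrade proteins delivered by endocytosis and autophagy. They are classed by the residue that cuts the peptide bond. Ctsd and Ctse are aspartic proteases, Ctsb, Ctsc, Ctsh, Ctsl, Ctss and Ctsz are cysteine proteases, and Ctsa is a serine carboxypeptidase. Ctsd is the general aspartic protease of lysosomes, while Ctse is found in endosomes of stomach epithelium and immune cells and at the membrane of red blood cells.

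Because the mutation removes DNA binding by SCL, which recognises E-boxes and works beside GATA factors, the promoters of the cathepsins are shown first. RefSeq promoters on GRCm38.p6, from 250 bases before to 50 bases after the annotated start, matched 6 of the 9 genes, with 7 promoters in all, and did not include Ctsb, Ctse and Ctsh. The promoter of Ctsz (chr2:174438990-174439289, minus strand) is shown because its probes were higher in the mutant and it was the one member promoter with a GATA motif, given in capitals as read on the opposite strand.
Ctsz: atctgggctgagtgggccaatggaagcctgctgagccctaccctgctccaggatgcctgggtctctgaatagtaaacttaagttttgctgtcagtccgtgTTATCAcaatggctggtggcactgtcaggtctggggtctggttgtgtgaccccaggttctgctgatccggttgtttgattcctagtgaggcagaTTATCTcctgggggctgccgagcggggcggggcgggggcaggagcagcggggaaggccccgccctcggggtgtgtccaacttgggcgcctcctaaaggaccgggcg
The promoters of Ctsd (chr7:142387778-142388077, minus strand) and the second promoter of Ctsa (chr2:164833523-164833822, plus strand) are shown because they hold the palindrome TCACGTGA, in capitals, the core of the CLEAR element bound by the lysosomal regulator TFEB.
Ctsd: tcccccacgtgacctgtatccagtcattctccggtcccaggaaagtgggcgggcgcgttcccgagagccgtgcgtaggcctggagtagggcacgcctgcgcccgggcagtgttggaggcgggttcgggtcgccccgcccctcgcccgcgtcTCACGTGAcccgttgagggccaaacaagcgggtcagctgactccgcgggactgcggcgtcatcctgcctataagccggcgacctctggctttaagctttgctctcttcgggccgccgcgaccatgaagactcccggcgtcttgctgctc
Ctsa: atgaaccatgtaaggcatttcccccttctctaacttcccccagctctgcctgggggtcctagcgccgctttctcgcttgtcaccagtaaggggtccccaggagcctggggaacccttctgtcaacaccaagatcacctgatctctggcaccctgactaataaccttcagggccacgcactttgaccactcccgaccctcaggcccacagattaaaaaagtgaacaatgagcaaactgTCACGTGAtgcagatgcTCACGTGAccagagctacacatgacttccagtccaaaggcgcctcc

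Each motif was searched on both strands. The GATA motif, spelled AGATAA or, with another last letter, AGATAG, and with T as its first letter TGATAA or in turn TGATAG, had 2 matches in the Ctsz promoter and 0 in the other 6 member promoters, and 29.8% of all 32851 promoters hold it. The E-box CANNTG, held by 72.3% of all promoters, had 0 matches in the Ctsz and Ctsc promoters, 1 in that of Ctsl, 3 in those of Ctsd and Ctss, and 3 and 5 in the first and second Ctsa promoters. TCACGTGA contains an E-box, so each of its matches is also an E-box match. It had 1 match in the Ctsd promoter and 2 in the second Ctsa promoter, and 0.974% of all promoters hold it. CTG followed by GATA after a gap of 7 to 9 bases, the composite SCL and GATA element, had 0 matches in the 7 promoters and is held by 7.18% of all. These matches describe the letters only.

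A probe was kept when its detection p was under 0.01 on at least 3 of the 6 arrays. Of the 14 cathepsin probes 9 were kept, and they read 6 genes, 3 of them (Ctsb, Ctsc and Ctsz) through 2 probes each. Values are log2 intensities after background correction and quantile normalization, and levels of different probes cannot be set against each other. Mean raw signals of the arrays ranged from 385 to 546, and 11084 to 12678 probes were detected per array. Correlations between arrays were 0.975 to 0.984 within SclRER/RER, 0.989 to 0.993 within WT and 0.959 to 0.973 across genotypes. In the limma fit over all kept probes 451 of 6855 genes passed an adjusted p of 0.05, or 6.58%, with 245 higher and 206 lower in the mutant. That number depended on single arrays, falling to 237 when mutant array 2 was left out and to 296, 167 and 184 when WT arrays 1, 2 and 3 were. Erythroid markers were detected in all 13 of 13 genes with a probe, with Klf1, an erythroid transcription factor, and Hba-a1, an alpha globin, at means of 13.29 and 14.90 in the mutant. Tal1 itself, which encodes SCL, read 12.81, 12.73 and 12.77 in SclRER/RER and 12.82, 12.64 and 12.59 in WT. Its transcript is no check of the genotype labels, because the mutation alters the protein's DNA contact.

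Ctse, the aspartic protease, stood far apart from the other cathepsins in its difference between the genotypes. Its log2 intensity was 11, 11.03 and 9.64 on SclRER/RER arrays 1, 2 and 3. In WT it was 7.44, 7.65 and 7.54. All 3 mutant arrays lay above all 3 WT arrays, and the gene was detected on each of the 6, on WT array 3 by the substituted detection p of 0.00062 in place of the deposited 0.04616. The raw signals behind these values were 2836.4, 1781.1 and 762.8 in the mutant against 232, 295.9 and 233 in WT. The means were 10.56 ± 0.79 (SD, n = 3) and 7.55 ± 0.11 (SD, n = 3), a difference of 3.01 (SE 0.33, 95% interval 2.25 to 3.77), or 8.06-fold higher in SclRER/RER. The SE and interval, here and below, come from the fit over all kept probes, which draws on the spread of other probes. They are not those of the 6 Ctse values alone. The difference of 3.01 is what brought the gene into the set.

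**Figure D1:**
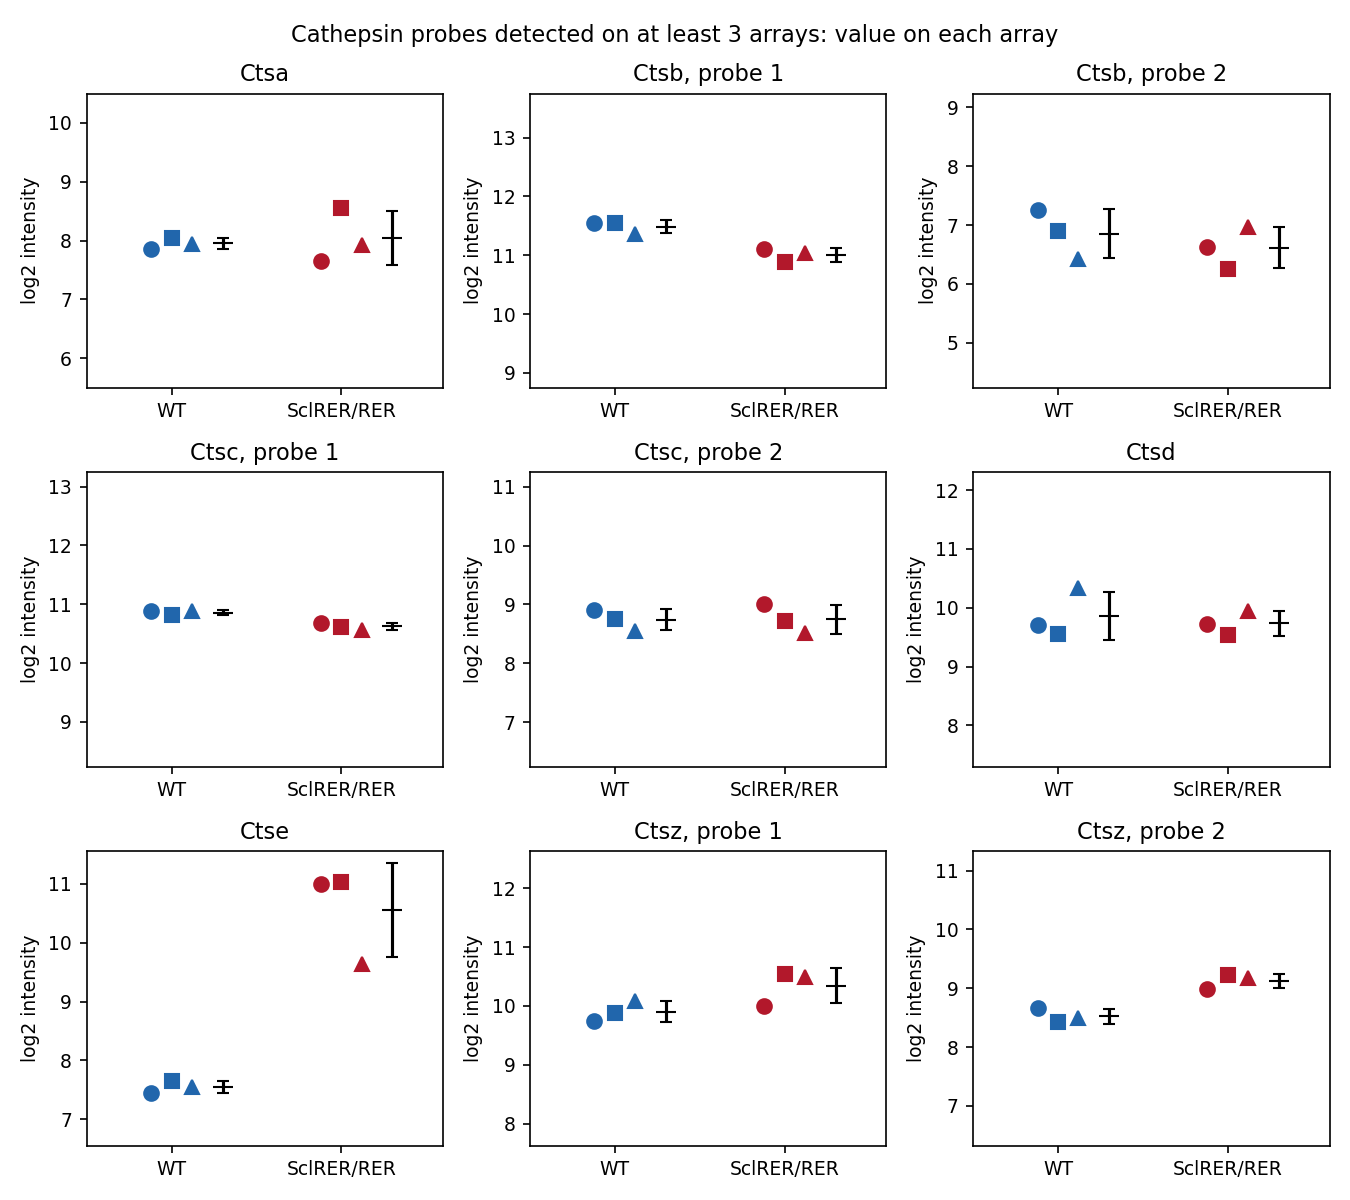
Log2 intensity (vertical axis) of the 9 kept cathepsin probes on each array, with circles, squares and triangles for arrays 1, 2 and 3, WT in blue and SclRER/RER in red, and the mean with its SD (n = 3) in black. Every panel spans the same number of log2 units around its own middle, so distances can be compared between panels but levels cannot, and the Ctse panel shows the widest gap, with SclRER/RER array 3 at 9.64 below the other mutant arrays.

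The spread of Ctse among the mutant arrays was itself large. Array 3 lay 1.37 log2 units under the mean of mutant arrays 1 and 2, and only 1.03% of the kept probes had a larger SD in SclRER/RER than Ctse, whose SD was 0.79 against a median of 0.17. In WT its SD of 0.11 was unremarkable, as 61.4% of kept probes had a larger one. Array 3 was still 2.10 above the WT mean, while arrays 1 and 2 were 3.47 above it. Some of the genes higher in the mutant shared this order. Of the 245 genes higher in the mutant 115 (46.9%) had their lowest mutant value on array 3, against 35.1% of all tested genes. Of the 206 lower genes 81 (39.3%) had their highest mutant value there, near the 37.0% of all. Whether array 3 differs in its cells or in its handling was not tested. In RNA from a whole sorted population, fewer cells that express a gene and less of its RNA per cell cannot be told apart.

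Ctsd, the other aspartic cathepsin, showed no such gap. It read 9.72, 9.53 and 9.95 in SclRER/RER and 9.71, 9.55 and 10.33 in WT. The groups overlapped, with the highest value on WT array 3. The difference was -0.13 (SE 0.21, 95% interval -0.60 to 0.34).

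Among the cysteine cathepsins, Ctsz, a carboxypeptidase also called cathepsin X, was the one with higher values in the mutant on both probes. Its first probe read 10, 10.55 and 10.49 in SclRER/RER and 9.74, 9.88 and 10.09 in WT. These groups overlapped, as mutant array 1 was below WT array 3, and the difference was 0.44 (SE 0.17, 95% interval 0.05 to 0.83). Its second probe read 8.98, 9.22 and 9.17 in SclRER/RER and 8.67, 8.42 and 8.49 in WT. There the groups were apart, with a difference of 0.60 (SE 0.12, 95% interval 0.31 to 0.88).

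Ctsb, a cathepsin that cuts both within proteins and from their carboxyl end, was lower in the mutant on its brighter probe. This probe read 11.11, 10.88 and 11.04 in SclRER/RER and 11.55, 11.55 and 11.36 in WT. The groups did not overlap, and the difference was -0.47 (SE 0.12, 95% interval -0.75 to -0.20). The dimmer probe read 6.63, 6.26 and 6.96 in the mutant, where it was detected on 2 of 3 arrays, and 7.25, 6.90 and 6.42 in WT. Its groups overlapped, with a difference of -0.24 (SE 0.24).

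Ctsc, also called dipeptidyl peptidase I, activates the serine proteases stored in granules of neutrophils and mast cells. On its brighter probe it read 10.69, 10.62 and 10.56 in SclRER/RER and 10.88, 10.81 and 10.88 in WT. The groups lay close but apart, with a difference of -0.23 (SE 0.11, 95% interval -0.47 to 0.01). On the other probe it read 9.01, 8.72 and 8.51 in SclRER/RER and 8.91, 8.75 and 8.55 in WT, with overlap and a difference of 0.01 (SE 0.16), so the probes of this gene did not show the same difference.

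Ctsa, the serine carboxypeptidase that protects neuraminidase and beta-galactosidase in a shared complex, read 7.66, 8.55 and 7.93 in SclRER/RER and 7.86, 8.05 and 7.95 in WT. Mutant array 2 was the highest and mutant array 1 the lowest, so the mutant values enclosed those of WT, and the difference was 0.09 (SE 0.21, 95% interval -0.39 to 0.57). Its other 2 probes were not detected on any array. The remaining cysteine cathepsins were not detected on any array either. Ctss, the class II processing enzyme of antigen-presenting cells, read 4.71 to 5.03. Ctsl, a broadly used endopeptidase, read 4.95 to 5.27, and Ctsh, an aminopeptidase, 4.56 to 4.80. These values lie at the level of the array's background. They do not show that the genes are not expressed, since Ctsa too had 2 undetected probes beside a detected probe.

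**Figure D2:**
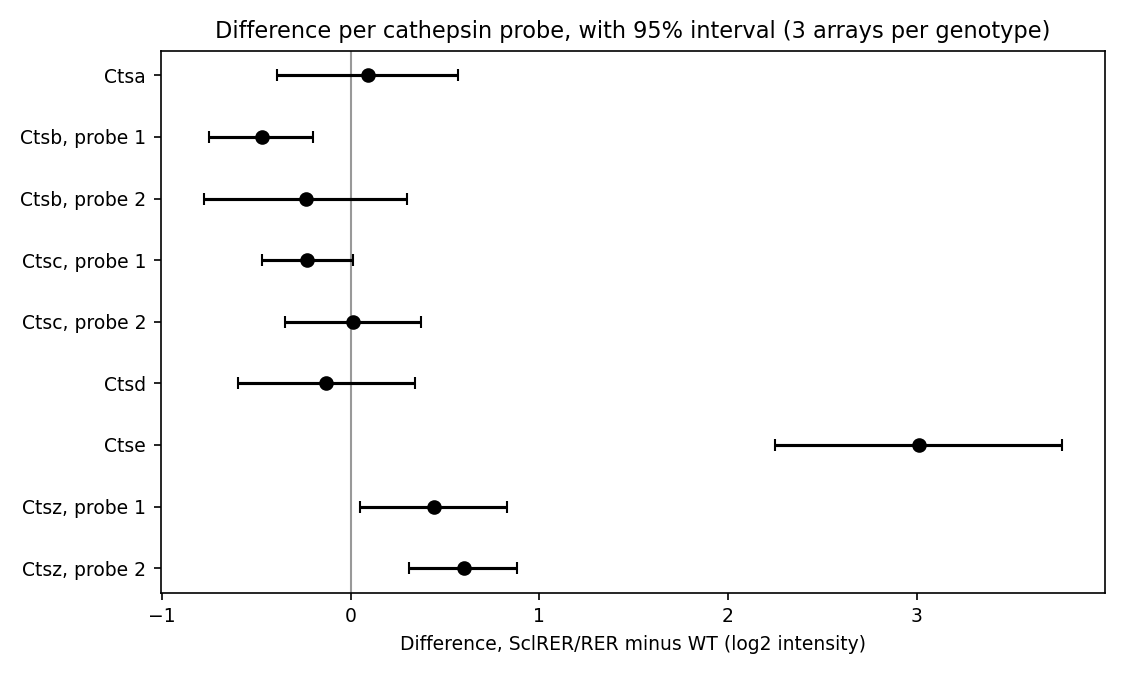
Difference between the genotypes, SclRER/RER minus WT, in log2 intensity (horizontal axis) for each of the 9 kept cathepsin probes, with the 95% interval from the fit over all kept probes (3 arrays per genotype). Ctse lies at 3.01, and the other 8 probes lie between -0.47 and 0.60.

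Of the 9 kept probes 4 had groups that did not overlap, that of Ctse and 1 each of Ctsb, Ctsc and Ctsz, where 24.5% of all kept probes did not overlap. By the threshold used for all genes 2 of the 9 probes passed, that of Ctse and the second of Ctsz, where 6.58% of all kept probes passed. Counting each gene by its brightest kept probe, 1 of 6 genes passed, against the 6.58% of genes above. Nothing is read from these counts, since the members were chosen on this contrast. The Ctsz probe did not pass when SclRER/RER array 2 (difference 0.55), WT array 2 (0.54) or WT array 3 (0.58) was left out, and the first Ctsz probe passed without SclRER/RER array 1 (0.62), so the count itself depends on single arrays. As a description, the Ctse difference was 2.77 to 3.46 when each array was left out in turn.

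Across the 6 arrays the other cathepsins did not follow Ctse as one group. Pearson's r with Ctse, as a description over arrays that share the genotype split, was 0.64 and 0.87 for the Ctsz probes. It was -0.91 and -0.51 for the Ctsb probes, and -0.82 and 0.21 for those of Ctsc. Ctsd gave -0.35 and Ctsa 0.23. SclRER/RER array 3, low for Ctse, was not the lowest mutant array for Ctsz, Ctsb, Ctsd or Ctsa, while both Ctsc probes were lowest there.

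Among all tested genes, those whose 6 values were most like those of Ctse were Pax6 (r = 0.998), Cish (0.997), Sccpdh (0.996), Ralgps2 (0.996), Chrna5 (0.996), Skap1 (0.995), Ugt8a (0.994), Papss2 (0.994), Lypd1 (0.993) and Gramd1b (0.992). Pax6, a transcription factor of eye and pancreas, read 11.20, 11.26 and 10.09 in SclRER/RER and 8.46, 8.47 and 8.66 in WT. Lypd1, a small membrane-anchored protein that binds nicotinic receptors, read 9.49, 9.48 and 8.23 in SclRER/RER and 4.72 to 4.78 in WT, where it was not detected, so it was at least 6.48-fold higher in the mutant. Sccpdh was not detected in WT either and was at least 8.28-fold higher. All 10 genes, picked by likeness to these values, were lower on mutant array 3 than on arrays 1 and 2, as Ctse was. Their differences varied in size: Cish, a feedback inhibitor of cytokine signalling, differed by only 0.48, Ralgps2 by 1.21 and Pax6 by 2.32. On chromosome 1, which carries Ctse, lay 3 of the 10, Sccpdh, Ralgps2 and Lypd1, as did 35 of the 451 genes that passed. Of the 6851 tested genes with a known position 329, or 4.8%, lie on that chromosome.

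The genes with the lowest r were Agrn (-0.998), Reep6 (-0.997), M1ap (-0.995), Alox12 (-0.994) and Marcksl1 (-0.992). Agrn, the proteoglycan agrin, read 8.81, 8.77 and 9.48 in SclRER/RER and 10.62, 10.54 and 10.71 in WT. Alox12, the platelet-type lipoxygenase, read 7.01, 6.89 and 7.44 in the mutant and 8.21, 8.32 and 8.31 in WT. In both genes mutant array 3 lay nearest to WT, the mirror image of Ctse. Likeness over 6 arrays of 2 groups selects genes that differ between those groups, so the differences of these genes are not tested here. It also selects genes that follow or mirror Ctse on mutant array 3, so that pattern is no separate result.

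**Figure D3:**
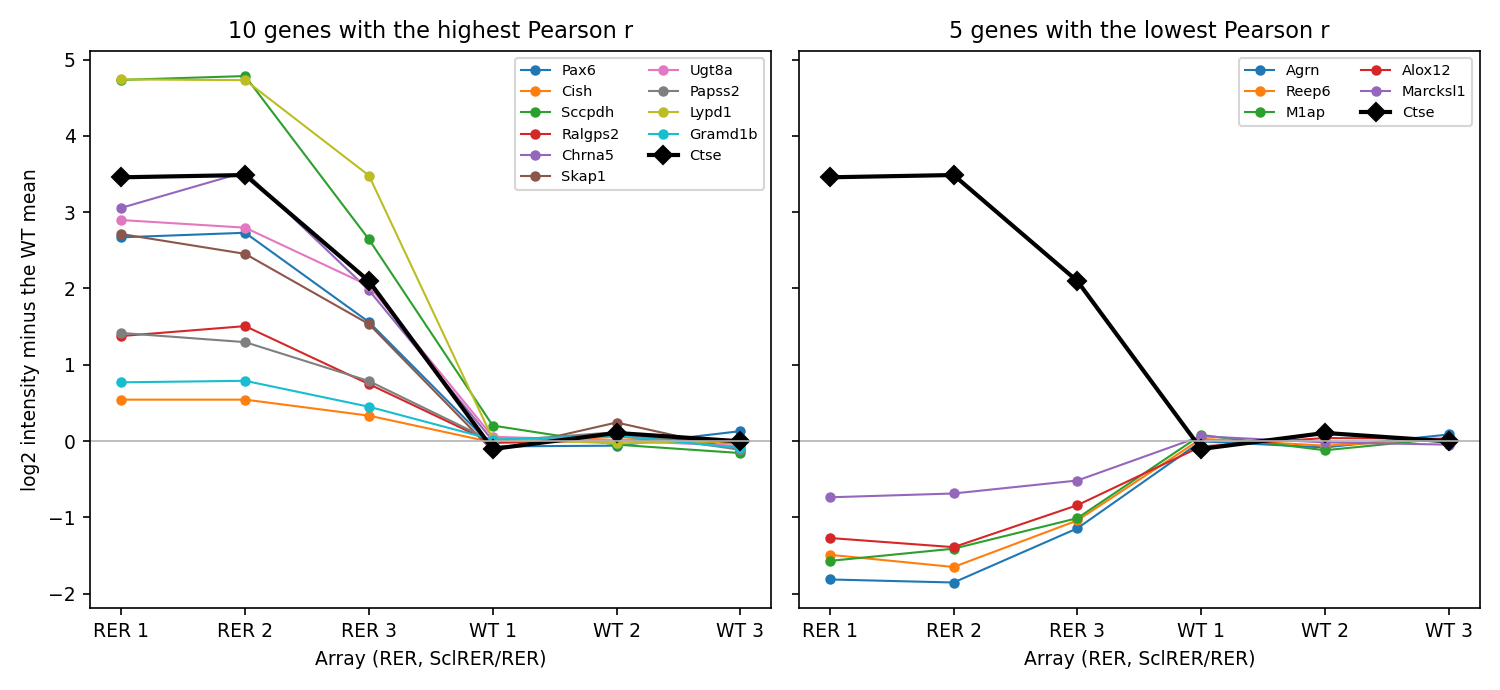
Log2 intensity minus the gene's own WT mean (vertical axis) on each of the 6 arrays for Ctse in black and, at left, the 10 genes with the highest Pearson r with it and, at right, the 5 with the lowest. Lines join the values of 1 gene and mark no order among arrays. On SclRER/RER array 3 the genes at left are lower than on arrays 1 and 2, as is Ctse at 2.10 above its WT mean. The selection of these genes by r with Ctse favours this pattern.

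The genes that act on or beside the cathepsins were then followed in 10 lists with 135 genes, of which 121 had a probe and 73 were kept. In the limma fit over all kept probes 9 of the 73 passed (12.3%), 2 higher and 7 lower in the mutant, beside 6.58% of all genes. Of the 2 higher, Man2b1 differed in the opposite direction on its other kept probe. The median difference of the 73 was 0.00, beside 0.02 for all genes. The number that passed was 4 without WT array 2.

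Of the 13 other cathepsins with a probe, only Ctsg was kept, and it fell. Ctsg, a serine protease of neutrophil and mast cell granules that Ctsc activates, read 6.27, 5.90 and 5.45 in SclRER/RER and 7.69, 7.23 and 7.55 in WT. The groups were well apart, and in the mutant it was detected on 1 of 3 arrays. The difference was -1.62 (SE 0.21, limma adjusted p = 0.00297). With undetected values raised to the detection floor it was -1.14. The median difference of the 8 kept neutrophil granule markers was -0.03, and 2 of the 8 fell, where 6.58% of all genes passed. Camp, Lcn2, Ltf, Ngp, S100a9 and S100a8 differed by 0.66, 0.36, 0.30, -0.01, -0.05 and -0.15 without passing. Those that fell were Mpo by 0.63 and Prtn3 by 0.68 on the log2 scale (limma adjusted p = 0.0338 and 0.0416). Both calls were lost without SclRER/RER array 2 (limma adjusted p = 0.0631 and 0.0966) or without any 1 WT array (0.0811 to 0.184) and, for Prtn3, at 0.05 without SclRER/RER array 3. With median scaling they reached 0.576 and 0.428, and with no detection filter 0.0953 and 0.136. The summed signal of the 10 markers, 2 of them detected on no array, was 4620 to 10936 in the mutant against 7030 to 7999 in WT. Their part in the Ctsg result was not tested.

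Among the other aspartic proteases 2 of 7 genes with a probe were kept, and they moved in opposite directions. Napsa, napsin A, a close relative of Ctsd and Ctse known from lung and kidney, read 7.85, 8.27 and 7.58 in SclRER/RER and 6.38, 6.47 and 6.59 in WT. It rose by 1.42 (SE 0.18, limma adjusted p = 0.00226), and its second probe rose by 1.77 (SE 0.26, limma adjusted p = 0.00456). As with Ctse, mutant array 3 was the lowest of the mutant arrays and still above all WT arrays. Psen2, a catalytic subunit of gamma-secretase, read 8.91, 8.86 and 9.17 in SclRER/RER and 9.58, 9.56 and 9.89 in WT and fell by 0.70 (SE 0.14, limma adjusted p = 0.0227). The Psen2 call was lost without SclRER/RER array 2 (adjusted p = 0.0869 by limma), WT array 2 (0.0753) or WT array 3 (0.0947), with no detection filter (0.0735) and with median scaling (0.396).

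None of the 5 kept cathepsin inhibitors passed. Cstb and Cst3, cystatins that block cysteine cathepsins inside and outside cells, differed by 0.20 (SE 0.10) and 0.31 (SE 0.14). For neither gene did the mutant and WT arrays overlap. Cstb read 11.90 to 12 and 11.73 to 11.77, and Cst3 11.45 to 11.81 and 11.17 to 11.44. Of all kept probes 24.5% had groups that did not overlap. Stfa2 and Stfa2l1, stefins that are near-identical copies and may share signal, differed by 0.23 (SE 0.45) and 0.38 (SE 0.23), and each read highest on mutant array 1. The stefins are known from neutrophils, whose summed markers also reached their highest value, 10936, in the mutant, and a link between these was not tested.

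Of 4 other lysosomal peptidases kept, Prcp fell and 3 did not pass. Prcp, a serine carboxypeptidase that removes residues after proline, read 11.36, 11.37 and 10.95 in SclRER/RER and 12.08, 12.16 and 12.03 in WT, a fall of 0.87 (SE 0.14, limma adjusted p = 0.00873). Its dimmer probe, detected on 1 of 3 mutant and 2 of 3 WT arrays, lay at the background level and did not pass (limma adjusted p = 0.0549). The call on the brighter probe was lost without WT array 2 (0.0601) and with median scaling (0.165). Asah1, acid ceramidase, differed by -0.21, Dpp7 by 0.10 and Tpp1, the tripeptidyl peptidase, by 0.05. Lgmn, the endopeptidase that processes several cathepsins, was not kept.

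Of 10 kept partners and substrates of lysosomal breakdown 1 passed on its brightest probe, and its probes disagreed. Man2b1, lysosomal alpha-mannosidase, read 11.92, 11.91 and 11.84 in SclRER/RER and 11.30, 11.39 and 11.23 in WT on that probe, a difference of 0.58 (SE 0.11, limma adjusted p = 0.0151). On its other probe it read 8.08, 8.38 and 8.23 in the mutant and 11.28, 11.64 and 11.34 in WT, a difference of -3.19 (SE 0.14, limma adjusted p = 8.23e-06). The direction for this gene is therefore not settled, and no change in its level is stated. The call on the first probe was lost without SclRER/RER array 2 (limma adjusted p = 0.0608) or WT array 1 (0.0506), 2 (0.0614) or 3 (0.0805), and with median scaling (0.172). The partners of Ctsa in its complex, Neu1 and Glb1, differed by 0.32 (SE 0.13) and 0.13 (SE 0.23) without passing. Glb1, beta-galactosidase, read 10.51, 10.53 and 9.61 in SclRER/RER and 10.05 to 10.15 in WT, with mutant array 3 below the other arrays. Psap, the precursor of the saposins, differed by 0.13 and Gaa, acid alpha-glucosidase, by 0.18. Hexa, a subunit of beta-hexosaminidase, and Lipa, lysosomal acid lipase, lay nearest to the threshold without passing, at 0.59 and -0.56 (limma adjusted p = 0.0631 and 0.0522). Hexa passed under 6 alternatives, among them without SclRER/RER array 3 at 0.75 (limma adjusted p = 0.00792), and Lipa under 5, none of which left out an array.

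In the sorting of lysosomal enzymes 2 of 13 kept genes fell and 11 did not pass. Igf2r, the large mannose 6-phosphate receptor that carries cathepsins to lysosomes, read 9.16, 9.25 and 8.96 in SclRER/RER and 9.74, 9.73 and 9.93 in WT, a fall of 0.67 (SE 0.13, limma adjusted p = 0.0155). Vps35, the retromer subunit that returns such receptors, read 12.25, 11.98 and 12.06 against 12.97, 12.81 and 12.67, a fall of 0.72 (SE 0.13, limma adjusted p = 0.0132). The Igf2r call was lost without WT array 2 (limma adjusted p = 0.0701) or 3 (0.0787) and the Vps35 call without SclRER/RER array 2 (0.0573) or WT array 2 (0.0734), and both were lost with median scaling (0.439 and 0.443). M6pr, the small mannose 6-phosphate receptor, differed by 0.21, and the adaptors Gga2 and Gga3 by 0.00 and 0.17. Sort1, sortilin, another sorting receptor, named here after its values were seen, read 9.85, 9.99 and 8.34 in SclRER/RER and 8.35 to 8.68 in WT. It did not pass (limma adjusted p = 0.227) but passed at a difference of 1.45 without SclRER/RER array 3 (limma adjusted p = 0.0012), the array on which Ctse was also low. Scarb2, the receptor of glucocerebrosidase, also named after its values were seen, differed by 0.49 with all arrays and 0.69 without that array (limma adjusted p = 0.198 and 0.0305).

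Few genes of the lysosomal membrane and of the proton pump that acidifies the lysosome passed. None of 12 kept membrane genes passed, with a median difference of -0.05, among them Lamp1 at -0.02, Laptm5 at -0.14, Laptm4a at 0.28 and Ostm1 at -0.12. Of 15 kept pump subunits 1 passed and their median difference was -0.09. Atp6v0a1, an isoform of the membrane-bound a subunit, read 9.71, 9.60 and 9.72 in SclRER/RER and 10.40, 10.32 and 10.41 in WT and fell by 0.70 (SE 0.11, limma adjusted p = 0.00627), a call lost with median scaling (0.401). The subunits Atp6v1b2, Atp6v1e1, Atp6v1f and Atp6ap1 differed by 0.06, -0.18, -0.02 and -0.11. None of 8 kept regulators of lysosomal genes passed, with a median of 0.09. Tfeb, whose binding core is marked in the Ctsd and Ctsa promoters above, was not detected, and its relatives Tfe3 and Mitf differed by -0.07 and 0.07. Rragc, Flcn, Rptor and Fnip1, which tie the lysosome to the mTOR kinase, differed by 0.10, -0.13, 0.22 and 0.04.

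Class II antigen presentation, which depends on cathepsins, was mostly below detection. Of 9 genes with a probe 3 were kept, and neither H2-Aa nor H2-Eb1, nor Cd74, the invariant chain that cathepsins cut, was detected on any array. Ifi30, a lysosomal thiol reductase that opens disulphide bonds for the proteases, read 8.68, 8.92 and 8.96 in SclRER/RER and 10.04, 9.91 and 10 in WT. It fell by 1.13 (SE 0.12, limma adjusted p = 0.00108), and its second probe fell by 0.81 (SE 0.13, limma adjusted p = 0.00829). H2-Ab1 differed by 0.32 and H2-Ob by -0.37 without passing, though H2-Ab1 passed at 0.55 without SclRER/RER array 3 (limma adjusted p = 0.0272).

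**Figure D4:**
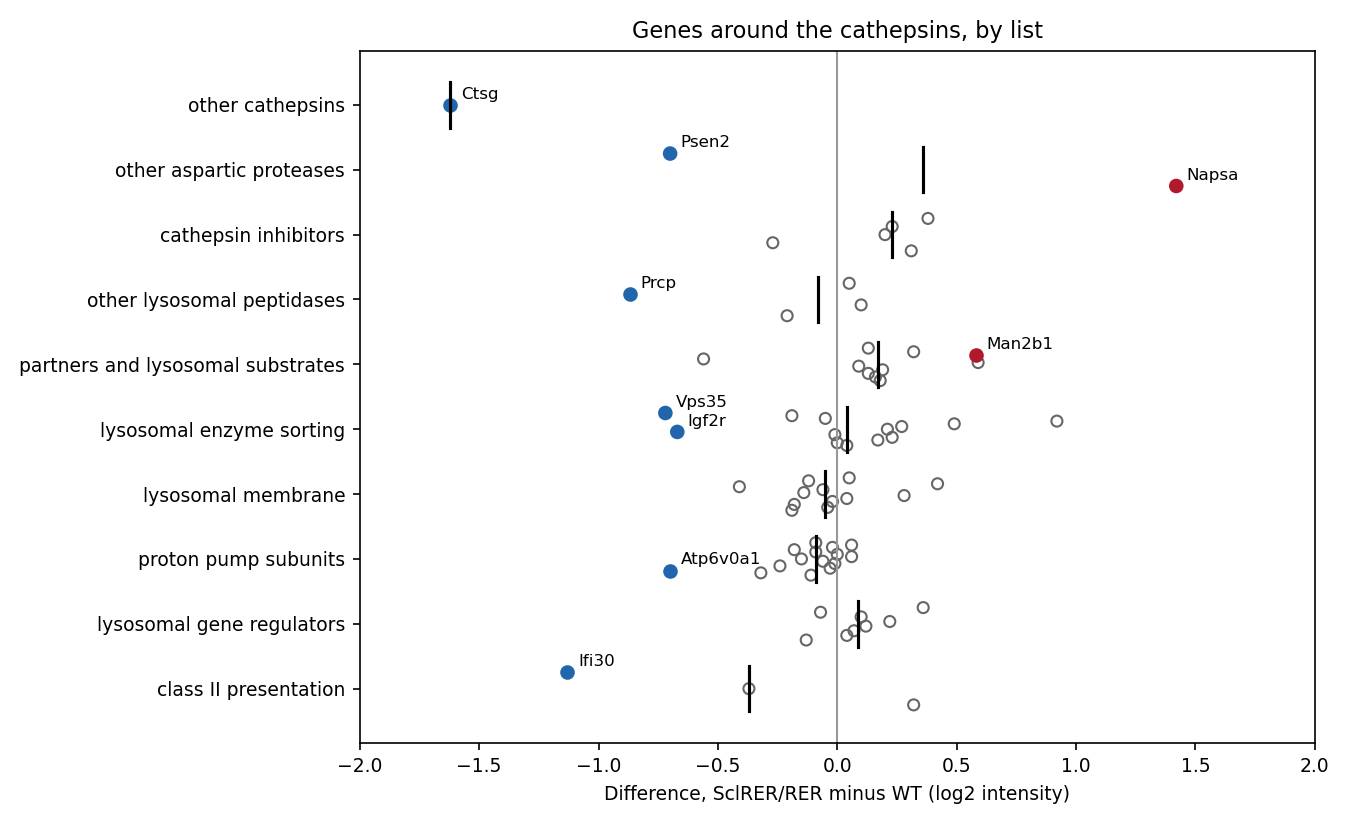
Difference between the genotypes, SclRER/RER minus WT, in log2 intensity (horizontal axis) for the 73 kept genes of 10 lists (vertical axis), each by its brightest kept probe. Filled named points passed the limma adjusted p of 0.05 over all kept probes, red higher and blue lower, open points did not, and black bars are list medians; the 9 that passed lie between -1.62 and 1.42, and Man2b1 differed in the opposite direction on its other probe.

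Several cathepsins are known from macrophages, so markers of other cells were read beside them. Of 20 macrophage markers with a probe, 19 were detected on no array by their brightest probe, among them the defining genes Adgre1, C1qa, C1qb, C1qc, Mrc1 and Cd163. The summed signal of the list was 966 to 1232 in SclRER/RER and 982 to 1040 in WT, and the one kept marker, the lysozyme Lyz2, differed by 0.16 (limma adjusted p = 0.765). This sum takes in the 19 undetected markers at background level, so its likeness between genotypes does not measure macrophages. The sums given below also take in undetected markers. Megakaryocyte markers fell in 4 of 5 kept genes, with a summed signal of 1215 to 2021 in the mutant and 3003 to 3523 in WT. Beside this count and those of the other markers below, 6.58% of all genes passed. Of 5 kept mast cell and basophil markers 1 rose and 2 fell, with sums of 1198 to 1394 and 1330 to 1419. Of 13 erythroid markers 2 fell, Slc4a1, the chloride and bicarbonate exchanger of red cells, by 2.35 and Epor, the erythropoietin receptor, by 0.54 (limma adjusted p = 0.00202 and 0.0199). Epor passed on 1 of its 2 kept probes. The Epor call was lost without SclRER/RER array 2 (limma adjusted p = 0.0742) or any 1 WT array (0.0767 to 0.0839) and with median scaling (0.774). Of the megakaryocyte calls those of Pf4 and Vwf, and of the mast cell calls those of Cpa3 and Fcer1g, were lost without WT array 2 (limma adjusted p = 0.0996, 0.0551, 0.0551 and 0.0614), and Pf4, Vwf and Fcer1g also without WT array 3 (0.0811, 0.0545 and 0.0637). With no detection filter the 4 reached 0.129, 0.0508, 0.0734 and 0.103. Of the kept hepatocyte, dendritic or lymphoid, and endothelial or stromal markers, 1, 2 and 1 in number, none passed. The part of these cell types in the values of Ctse and the other cathepsins was not tested.

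The position of the cathepsins on the chromosomes was not used to choose them, so the tested genes beside each were read as well, in the order of the RefSeq gene table for GRCm38.p6. No source used here names the build behind the array's annotation, so gene coordinates are left out. Of the 20 tested genes nearest to Ctse on chromosome 1, 10 on each side, 3 rose and 1 fell, and all 4 lay within 4 places of it. The median of the 20 was 0.07, beside 0.02 for all genes. Of all genes 6.58% passed, and of the 329 tested genes on chromosome 1 35 passed, or 10.6%. Rassf5, a Ras and Rap effector and the next tested gene on one side, read 8.50, 8.93 and 8.68 in SclRER/RER and 8.01, 8.0 and 8.12 in WT, a rise of 0.66 (SE 0.14, limma adjusted p = 0.0228). Rab29, a small GTPase and the next on the other side, differed by 0.06 and did not pass. Slc45a3, a sugar transporter of the next place beyond it, read 8.26, 8.23 and 7.28 in SclRER/RER and 6.89, 6.46 and 6.45 in WT. It rose by 1.32 (SE 0.26, limma adjusted p = 0.02), and like Ctse it was lowest among the mutant arrays on array 3. Nuak2, an AMPK-related kinase, rose by 0.58 (SE 0.14, limma adjusted p = 0.0497), and Tmcc2, a membrane protein, fell by 0.85 (SE 0.15, limma adjusted p = 0.0133). Both were near the detection limit, Nuak2 detected on 2 of 3 WT arrays and Tmcc2 on 2 of 3 mutant arrays. The next gene, Rbbp5, differed by -0.23 and did not pass.

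These calls beside Ctse were lost when any of several arrays was left out, while the differences kept their sign. Rassf5 stayed at 0.55 to 0.76, Slc45a3 at 0.91 to 1.65, Nuak2 at 0.35 to 0.69 and Tmcc2 at -0.99 to -0.52 under all alternatives. Without SclRER/RER array 2 none of the 4 passed, with limma adjusted p of 0.075 for Rassf5, 0.0727 for Slc45a3, 0.152 for Nuak2 and 0.0554 for Tmcc2. Rassf5 was also lost without WT array 1 (limma adjusted p = 0.0749), 2 (0.119) or 3 (0.0747). Slc45a3 was also lost without WT array 2 (0.106) or 3 (0.0931), and Tmcc2 without WT array 3 (0.068). Nuak2 was also lost without SclRER/RER array 3 (0.0924) and WT array 2 (0.18) or 3 (0.181), and with 7 other settings of the processing (0.0564 to 0.272). With no detection filter the adjusted p of Rassf5, Slc45a3 and Tmcc2 were 0.0647, 0.125 and 0.0576, and with median scaling Rassf5 and Tmcc2 reached 0.11 and 0.0848.

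**Figure D5:**
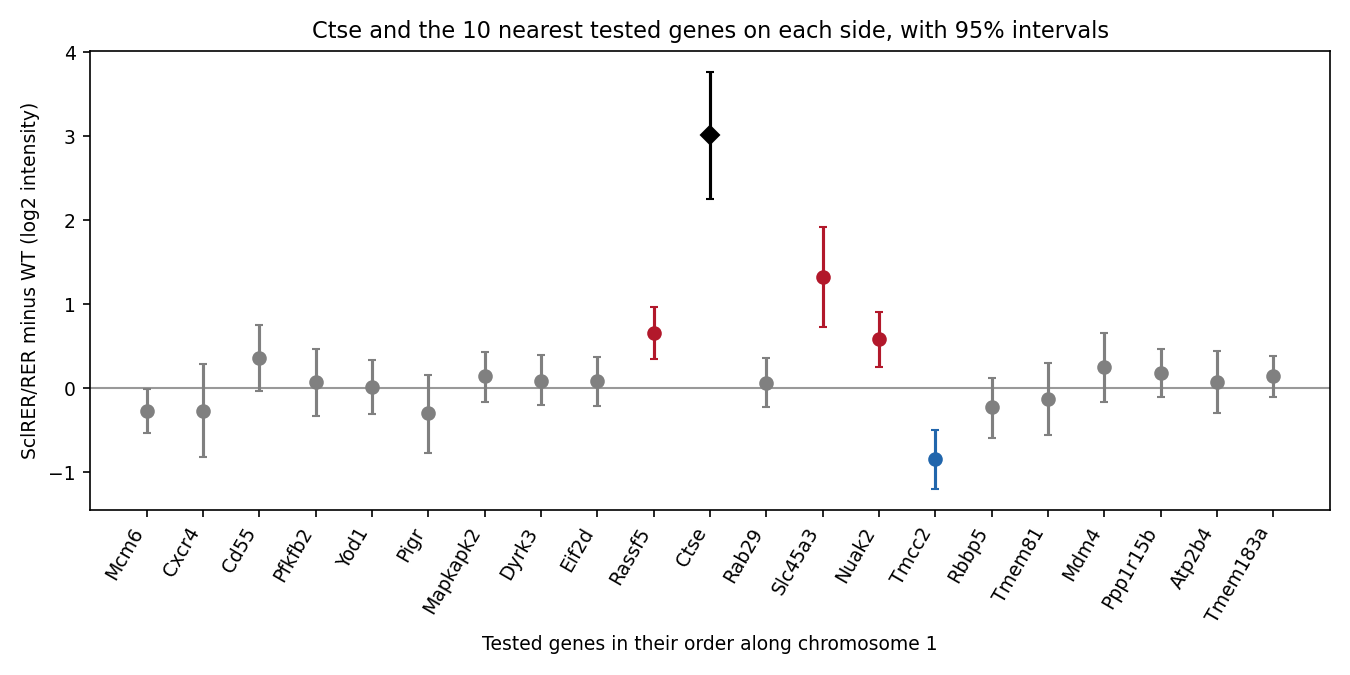
Difference between the genotypes, SclRER/RER minus WT, in log2 intensity with 95% intervals (vertical axis) for Ctse (black diamond) and the 10 nearest tested genes on each side, in their order along chromosome 1 (horizontal axis, not to scale in distance). Red and blue points passed the limma adjusted p of 0.05, higher and lower, and grey points did not; the 4 that passed lie within 4 places of Ctse, and the largest of them is Slc45a3 at 1.32.

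Beside the other 8 cathepsins 3 of 80 neighbours passed, so that 7 of 100 neighbours passed in all, where 6.58% of all genes passed. The 3 were Neil2 beside Ctsb, Fah beside Ctsc and Rwdd2a beside Ctsh, named here after their values were seen. Fah, the last enzyme of tyrosine breakdown, rose by 2.65 (SE 0.17, limma adjusted p = 6.61e-05) although the probes of Ctsc itself differed by -0.23 and 0.01. Neil2, a DNA glycosylase detected on 1 of 3 WT arrays, rose by 0.79, or by 0.63 with undetected values raised to the detection floor (limma adjusted p = 0.0285 for the former), and Rwdd2a fell by 0.55 (limma adjusted p = 0.0425). Neil2 was lost without SclRER/RER array 2 (limma adjusted p = 0.0757) or WT array 2 (0.128) or 3 (0.123), and Rwdd2a without any array other than SclRER/RER array 1 (0.0683 to 0.192). With median scaling and with no detection filter they reached 0.0733 and 0.115 for Neil2 and 0.706 and 0.0926 for Rwdd2a, which was also lost on the authors' normalized values (0.0507). The 7 neighbours that passed became 1 when mutant array 2 was left out, 2 for WT array 2 and 1 for WT array 3. No tested gene among the 10 nearest to Ctsz passed.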

How the data were processed

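RNA of 3 SclRER/RER and 3 WT samples was read on 1-colour Illumina bead arrays. The deposited table, per the file headers, holds non-normalized probe intensity values, 1 signal column per sample. A detection column beside each is a fraction, headed as a p-value but, judged from the deposited values, holding 1 minus p. On WT array 3 the deposited scores followed the signals less closely (Spearman 0.899 against at least 0.996), and each was replaced by the mean of WT arrays 1 and 2 at its signal rank. The authors' normalized table has equal medians on all 6 arrays, which either quantile normalization or median scaling would give. It served as an alternative. The submitters' processing notes name limma with no role or version. The number of arrays limits the precision.

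Signals were background-corrected (normexp, with the negative controls inferred from the detection p, offset 16), quantile-normalized and logged to base 2 with limma 3.58.1 in R 4.3.3. Probes with detection p under 0.01 on at least 3 of 6 arrays were kept (11578). Genotypes were compared with lmFit and eBayes, two-sided, with Benjamini-Hochberg adjustment over all kept probes. A gene stands as its brightest kept probe. Of all probes, 29976 have 1 gene symbol, 10 several and 16646 none. The members and lists were chosen with earlier results of these data known. Named are all members, listed genes that passed or were among the 4 brightest of their list, genes beside Ctse that passed, the 10 genes most and 5 least like Ctse, and Tal1. Outside this rule, Neu1, Hexa, Lipa, Lgmn, Sort1, Scarb2, Tfeb, Tfe3, Mitf, H2-Aa, H2-Eb1, Cd74, Rab29, Rbbp5, the neighbours of other members that passed and the marker genes were named after their values were seen. The scripts were tested on simulated data. Alternatives changed the background correction, scaling, detection filter, probe choice, array weights and replicate block, and left out each array. The alternative that keeps the deposited scores of WT array 3 was chosen after seeing the data.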

Additional observations from a re-analysis of the deposited data

How the results depend on the processing

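The Ctse difference of 3.01 lay between 2.64 and 3.46 under all 16 alternatives, with 2.77 to 3.46 when 1 array was left out. The number of genes that passed, 451, was 239 with median scaling and 704 with array weights, and 167 to 521 without 1 array. Median scaling moved the median difference of all genes from 0.02 to 0.13, and under it Ctsb and Ctsc differed by -0.36 and -0.11, against -0.47 and -0.23 as reported. Relative to the median of all genes the differences were -0.49 and -0.24 under median scaling and -0.49 and -0.25 under the reported scaling. The listed genes that passed, 9, were 3 with median scaling and 4 to 13 without 1 array. The neighbours that passed, 7, were 3 with median scaling, 1 with no detection filter, 12 with array weights and 1 to 10 without 1 array. Man2b1 turned to -1.30 when the mean of its kept probes was taken, since these disagree. The cause of the other shifts was not tested. The Ctsg, Napsa, Ifi30 and Fah calls held under all 16.

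Samples of both genotypes carry replicate numbers, and whether these pair the samples is not in the labels. The deviations of same-numbered arrays from their group means correlated at 0.16, -0.03 and 0.07. Not every array correlated best with its own number. Deviations from a mean of 3 arrays constrain each other, so these correlations cannot exclude a pairing. With the replicate number as a block 432 genes passed, 389 of them among the 451, and 10 listed genes, 6 neighbours and a Ctse difference of 3.01 were found. Nuak2, Rwdd2a and Pf4 did not pass in that fit (limma adjusted p = 0.0905, 0.0629 and 0.0533). Signal over background limits the 3 undetected cathepsins, for which no difference could be measured.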
